A study of Mus musculus with 26 samples.

Results

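Hydroxymethylated RNA was examined at 10 genes that encode subunits of the BAF chromatin remodelling complex, the mammalian SWI/SNF machine. These were the ATPases Smarca4 (BRG1) and Smarca2 (BRM), the core subunits Smarcb1, Smarcc1, Smarcc2, Smarcd1 and Smarce1, the ARID subunits Arid1a and Arid1b, and Pbrm1, which belongs to the related PBAF complex. They were 10 of 22380 coding genes of the mm9 annotation (GENCODE M1). A peak was assigned to a gene when its summit, the middle of the listed 200 bp interval, lay within the span of that gene, and overlapping intervals of all libraries were merged into regions. This gave 125 peaks in 42 regions, out of 56538 intervals and 23367 regions in the series. Regions are numbered from the 5′ to the 3′ end of each gene.

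The BAF complex uses ATP to slide or evict nucleosomes and so opens chromatin for transcription factors. Embryonic stem cells (ESCs) are known for a form of it, esBAF, that is built on SMARCA4 and SMARCC1 and carries ARID1A, whereas SMARCA2 and SMARCC2 are better known from differentiated cells. The mark itself, 5-hydroxymethylcytosine (5hmC) in RNA, can be made by Tet dioxygenases, which oxidize 5-methylcytosine, and other sources may contribute.

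Total RNA was fragmented, precipitated with an anti-5hmC antibody and sequenced (hMeRIP-Seq). The 13 immunoprecipitated libraries came from mouse ESCs of 4 genotypes and from embryoid bodies. WT ESC (n = 3) were wild-type cells grown with LIF, and WT EB (n = 3) were embryoid bodies formed from them over 4 days without LIF. TKO ESC (n = 3) lacked Tet1, Tet2 and Tet3. Tet2-KI ESC (n = 2) carried a Flag/HA/Twin-Strep tag on the endogenous Tet2, and Tet2deltaRBD-KI ESC (n = 2) carried a tagged Tet2 without its RNA-binding domain. Both knock-ins came from picked clones. Replicates were stated to be biological, but no label ties a library to a culture, so the spread between libraries may be partly technical. The descriptions of replicate 1 began with 1608 in WT ESC and TKO ESC and with 1610 in WT EB, those of replicates 2 and 3 of these groups began with 1703, and the knock-ins had none.

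The lists held no read counts, so the depth behind a peak is unknown and a gene without a peak is one where no interval passed the authors' peak calling. The shortest list, of 498 intervals, was WT EB replicate 1, and the longest, of 10383, was Tet2-KI ESC replicate 1. With 3 libraries each, mean length was 6002 ± 1425 for WT ESC, 2850 ± 1717 for TKO ESC and 1954 ± 1521 for WT EB (SD). With 2 libraries each, it was 8082 ± 3254 for Tet2-KI ESC and 3979 ± 934 for Tet2deltaRBD-KI ESC (SD). Fold enrichment of the precipitate over its input was listed for the 9 libraries of the first 3 groups only. Peak lists hold no expression levels, so the cell type labels could not be checked against marker genes. In such bulk RNA, fewer cells of a type and less RNA per cell cannot be told apart.

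The sequences below are those of the regions on which the findings rest, taken from the mm9 genome (NCBIM37) on the strand of the gene, 5′ to 3′, without bases annotated as UTR. Capitals mark the longest unbroken run of A and G in each, because the BAF regions held more purines than pyrimidines. Where runs tied for the longest, the first was marked. Smarcc1 region 8 was found in most libraries, Smarcc1 region 1, Arid1a region 2 and Arid1b regions 5 and 6 were the other regions of every WT ESC library, and Smarcc2 region 2 was in every TKO ESC library without a WT ESC peak. Smarca4 region 4 and Arid1a region 8 were in both Tet2-KI ESC libraries, Arid1b region 2 was a repeat, and Smarca2 region 1 was found in embryoid bodies.
Smarcc1 region 8, chr9:110106703-110106969, plus strand: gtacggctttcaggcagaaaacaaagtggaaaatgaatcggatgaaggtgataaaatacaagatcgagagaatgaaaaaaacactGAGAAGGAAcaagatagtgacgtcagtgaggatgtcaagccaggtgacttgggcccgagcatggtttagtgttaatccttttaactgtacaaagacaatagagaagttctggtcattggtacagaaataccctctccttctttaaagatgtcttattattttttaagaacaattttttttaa
Smarcc1 region 1, chr9:110034621-110034779, plus strand: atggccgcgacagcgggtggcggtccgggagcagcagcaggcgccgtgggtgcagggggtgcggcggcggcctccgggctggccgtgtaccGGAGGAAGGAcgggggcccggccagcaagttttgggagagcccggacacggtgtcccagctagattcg
Arid1a region 2, chr4:133309296-133309532, minus strand: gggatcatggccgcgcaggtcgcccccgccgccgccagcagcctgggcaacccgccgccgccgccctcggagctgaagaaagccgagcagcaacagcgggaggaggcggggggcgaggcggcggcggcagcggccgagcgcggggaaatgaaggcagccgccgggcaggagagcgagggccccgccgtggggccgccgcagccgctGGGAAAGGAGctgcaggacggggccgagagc
Arid1b region 5, chr17:5174156-5174374, plus strand: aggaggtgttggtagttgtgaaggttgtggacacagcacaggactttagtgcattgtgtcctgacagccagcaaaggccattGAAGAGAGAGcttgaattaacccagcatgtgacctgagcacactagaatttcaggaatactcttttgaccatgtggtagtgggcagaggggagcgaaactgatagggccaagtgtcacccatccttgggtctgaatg
Arid1b region 6, chr17:5174617-5174849, plus strand: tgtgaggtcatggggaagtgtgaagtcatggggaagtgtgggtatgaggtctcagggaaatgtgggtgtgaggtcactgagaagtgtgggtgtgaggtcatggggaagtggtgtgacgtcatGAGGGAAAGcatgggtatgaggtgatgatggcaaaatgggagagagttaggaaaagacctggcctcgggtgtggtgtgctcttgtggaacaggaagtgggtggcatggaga
Smarcc2 region 2, chr10:127921168-127921423, plus strand: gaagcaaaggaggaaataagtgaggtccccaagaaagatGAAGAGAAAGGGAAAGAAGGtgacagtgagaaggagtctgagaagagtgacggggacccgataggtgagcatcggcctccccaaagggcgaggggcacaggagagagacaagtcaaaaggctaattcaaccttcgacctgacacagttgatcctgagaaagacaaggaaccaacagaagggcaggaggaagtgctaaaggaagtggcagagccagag
Smarca4 region 4, first 300 bases, chr9:21505360-21505659, plus strand: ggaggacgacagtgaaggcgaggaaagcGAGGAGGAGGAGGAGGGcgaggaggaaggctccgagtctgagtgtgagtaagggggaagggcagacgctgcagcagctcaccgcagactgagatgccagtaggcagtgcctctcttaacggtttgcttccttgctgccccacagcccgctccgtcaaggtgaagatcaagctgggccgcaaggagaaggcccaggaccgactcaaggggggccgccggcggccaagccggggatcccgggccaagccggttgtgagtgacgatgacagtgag
Arid1a region 8, chr4:133237597-133237808, minus strand: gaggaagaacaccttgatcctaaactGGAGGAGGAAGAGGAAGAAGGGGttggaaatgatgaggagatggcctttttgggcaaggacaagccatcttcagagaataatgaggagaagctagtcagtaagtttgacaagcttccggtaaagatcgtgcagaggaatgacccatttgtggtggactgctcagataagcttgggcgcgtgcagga
Arid1b region 2, first 300 bases, chr17:5011575-5011874, plus strand: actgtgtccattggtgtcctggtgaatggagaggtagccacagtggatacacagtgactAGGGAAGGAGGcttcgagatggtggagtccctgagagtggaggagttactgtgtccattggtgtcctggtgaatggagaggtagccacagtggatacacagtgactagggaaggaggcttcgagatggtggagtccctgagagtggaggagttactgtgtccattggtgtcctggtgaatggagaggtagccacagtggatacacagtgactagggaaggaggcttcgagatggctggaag
Smarca2 region 1, chr19:26826289-26826553, plus strand: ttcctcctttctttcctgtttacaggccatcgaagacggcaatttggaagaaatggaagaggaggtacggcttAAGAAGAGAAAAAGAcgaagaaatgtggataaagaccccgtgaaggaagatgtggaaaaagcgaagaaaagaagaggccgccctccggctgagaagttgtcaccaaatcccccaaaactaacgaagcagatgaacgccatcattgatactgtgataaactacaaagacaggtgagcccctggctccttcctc

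5hmC peaks were found in 9 of the 10 genes, with Smarcb1 as the exception. Smarcb1, a core subunit that contacts the nucleosome, had no peak in any of the 13 libraries. Over all coding genes 32.2% had at least 1 region. The counts were uneven. Smarcc1 held 50 of the 125 peaks in 11 regions, Arid1b held 25 in 8, Arid1a held 19 in 8 and Smarca4 held 12 in 5. Smarcc2 had 8 peaks in 3 regions, Smarce1 had 4 in 2, Smarca2 and Smarcd1 had 3 in 2 each, and Pbrm1 had 1. Per length, this was 4.23 regions per 100 kb of gene for the 10 genes, against 1.85 over all coding genes. Among members it ranged, where any was found, from 0.976 in Pbrm1 to 17.1 in Smarcd1, the shortest gene at 11.7 kb.

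**Figure D1:**
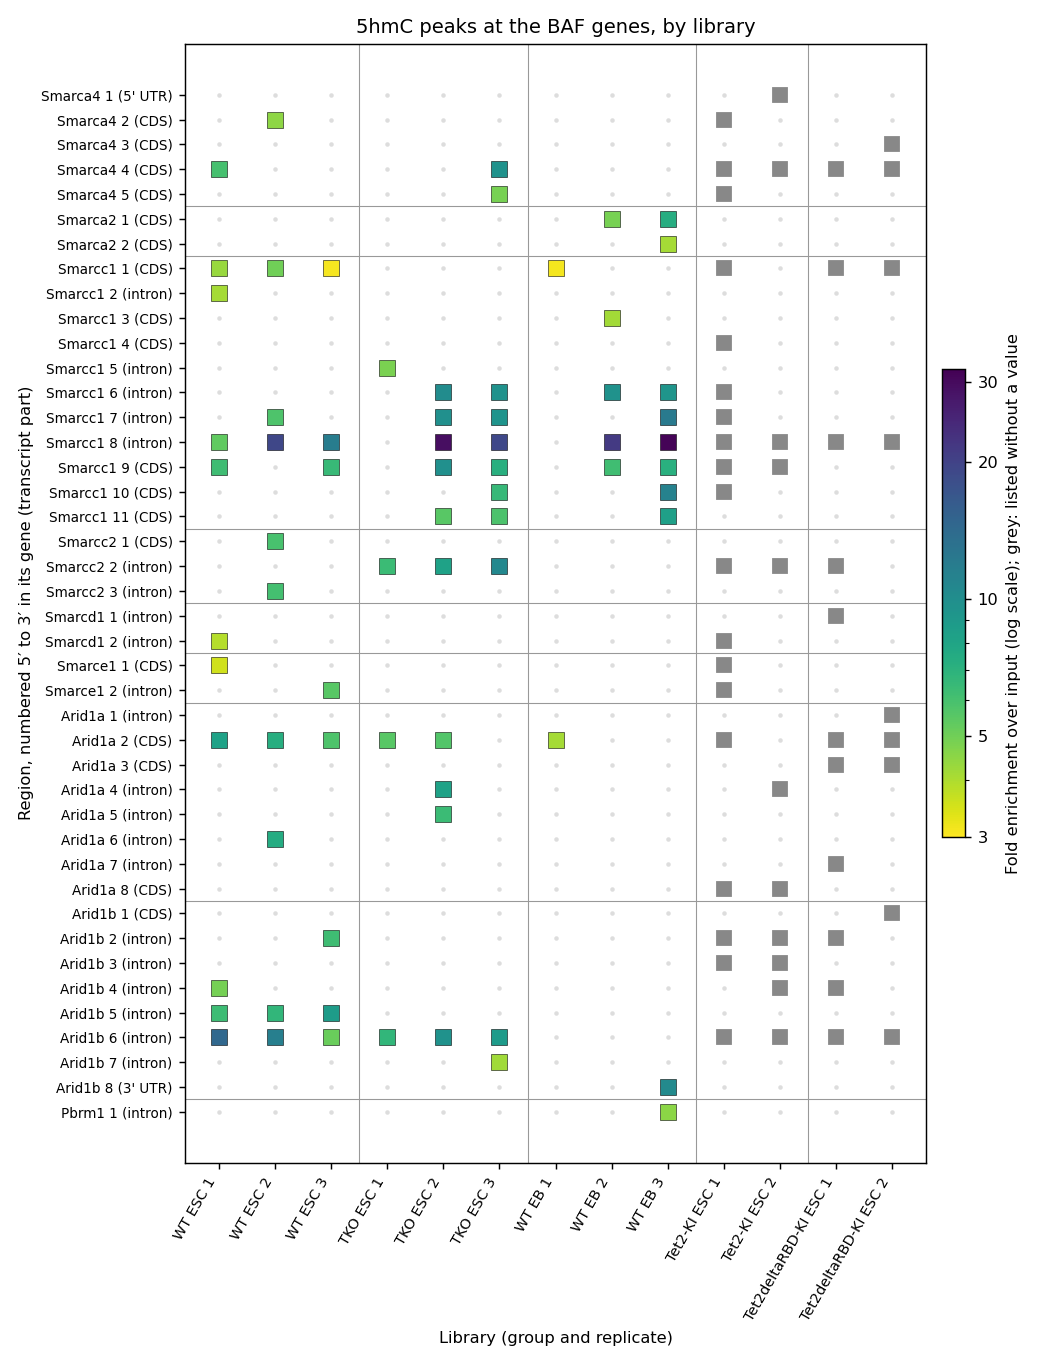
Presence of a 5hmC peak at each of the 42 BAF regions (rows, numbered 5′ to 3′ in each gene, with transcript part) in each of the 13 libraries (columns). Colour gives the fold enrichment over input on a log scale, grey squares are knock-in peaks listed without a value and small dots are libraries without a peak. Smarcc1 region 8 fills 11 of the 13 columns, and 18 regions fill 1 column.

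A region in every WT ESC library was found in 3 of the 10 genes, Smarcc1, Arid1a and Arid1b, against 3.76% of all coding genes. The 5 regions concerned were Smarcc1 1 and 8, Arid1a 2 and Arid1b 5 and 6. At the other end, 18 of the 42 regions (42.9%) were seen in 1 library, compared with 54.2% of all regions in coding genes, and 9 (21.4%) were seen in at least 5 libraries, compared with 13.3%. The 71 fold enrichments listed for BAF regions ranged from 3.09 to 31.1 with a median of 6.47, and the median of their percentile ranks, each taken within its own library's list, was 54.1%.

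Smarcc1, which encodes the scaffold subunit BAF155, was the member with a peak in all 13 libraries. Region 8 (chr9:110106703-110106969) was found in 11 of them. Its centre lay in intron 23 of 27, at 12 bp from the splice site, and 115 of its 267 bases were exon 23, with 4 of its 11 summits in the exon. Fold enrichment was 5.35, 19.4 and 11.9 in WT ESC replicates 1 to 3, 29.2 and 19.2 in TKO ESC replicates 2 and 3, and 21.4 and 31.1 in WT EB replicates 2 and 3. It was the highest value of any BAF region in 6 of the 7 libraries, above 94.2% to 99.3% of their lists, and stood above 33.1% of the list in WT ESC replicate 1. TKO ESC replicate 1 and WT EB replicate 1 had no peak there. All 4 knock-in libraries had it.

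The same part of Smarcc1 held 5 more regions. Regions 6 to 11 lay within 24.3 kb, between 65.8 and 89.9 kb from the gene start, and each had its centre 3 to 62 bp from a splice site of introns 21 to 23 or exons 24 to 26. In WT ESC, 2 of the 6 regions were listed in each library. In TKO ESC they numbered 0, 5 and 6, and in WT EB 0, 3 and 6, for replicates 1 to 3. Among the libraries whose descriptions began with 1703, TKO ESC and WT EB thus listed more of these regions than WT ESC did, but with replicate 1 the ranges of the groups overlapped. Regions 6 to 11 were grouped after their peaks were seen, and no share over the series stands beside these counts. The Tet2-KI ESC libraries listed 5 and 2 of them and the Tet2deltaRBD-KI ESC libraries 1 each. The lists of TKO ESC replicate 1 and WT EB replicate 1, without any, were the shortest of all at 964 and 498 intervals. Their part in the result was not tested.

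Region 9 had its centre in exon 24 (codons 830 to 881), 3 bp from the splice site, and 259 of its 414 bases were intronic. Its fold enrichments were 6.25 and 6.47 in WT ESC replicates 1 and 3 and 9.85 and 7.16 in TKO ESC replicates 2 and 3. WT EB replicates 2 and 3 had 6.22 and 7.12. Each value is the highest of its library in a region whose summits were spread over 214 bp. With 2 values per group, the groups were not compared. Region 6, at the edge of intron 21, had 10.2 and 9.64 in TKO ESC and 9.69 and 9.32 in WT EB, in replicates 2 and 3 of each, and was in no WT ESC library. Over replicates 2 and 3 alone, region 8 differed between WT ESC and TKO ESC by -0.64 in mean log2 fold enrichment (exact permutation p = 0.667, adjusted 0.908 over 930 regions) and between WT ESC and WT EB by -0.77 (exact permutation p = 0.333, adjusted 0.625 over 641 regions), where 0.333 is the smallest p that 2 against 2 libraries allow. Paired by replicate number, WT ESC was lower than TKO ESC in both pairs. The log2 difference was -0.59 in replicate 2 (19.4 against 29.2) and -0.69 in replicate 3 (11.9 against 19.2). This depends on the pairing of replicates 2 and 3, which is uncertain. Across replicate numbers, WT ESC replicate 2 (19.4) was slightly above TKO ESC replicate 3 (19.2). The exact sign-flip test of the pairs gave p = 0.5, the smallest that 2 pairs allow (adjusted 0.844 over 930 regions). Both comparisons share the WT ESC libraries.

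The 5′ end of Smarcc1 showed another pattern. Region 1 (chr9:110034621-110034779 for its coding part) covered codons 1 to 53 in exon 1. Fold enrichment was 4.32, 5.03 and 3.09 in WT ESC and 3.14 in WT EB replicate 1. These were low values, above 18.8%, 30.5% and 2.85% of the WT ESC lists. No TKO ESC library listed the region, while Tet2-KI ESC replicate 1 and both Tet2deltaRBD-KI ESC libraries did. The printed sequence begins at the start codon and is rich in G and C, at 74.0% over the central 200 bases.

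Smarcc2 encodes BAF170, the paralog of BAF155. Its region 2 (chr10:127921168-127921423) spanned intron 23, which is 82 bp long, and 174 bases of the exons on either side. Fold enrichment was 6.38, 8.19 and 10.6 in TKO ESC. The region was in no WT ESC and no WT EB library, in both Tet2-KI ESC libraries and in Tet2deltaRBD-KI ESC replicate 1. Of the 2 BAF regions in every TKO ESC library, it was the 1 without a WT ESC peak, compared with 1.73% of all such regions (6 of 346). Without TKO ESC replicate 1, Smarcc1 6 and 11 joined Smarcc2 2, with no share over the series at that setting. Smarcc2 2 had the lowest pyrimidine share of the BAF regions, 29.0% of the central 200 bases, and the printed sequence holds a run of 20 purines. The other regions of Smarcc2, in exon 1 and intron 24, were listed in WT ESC replicate 2 alone, at 5.99 and 6.06. Smarcc2 was found in 7 of the 10 ESC libraries and in no WT EB library.

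**Figure D2:**
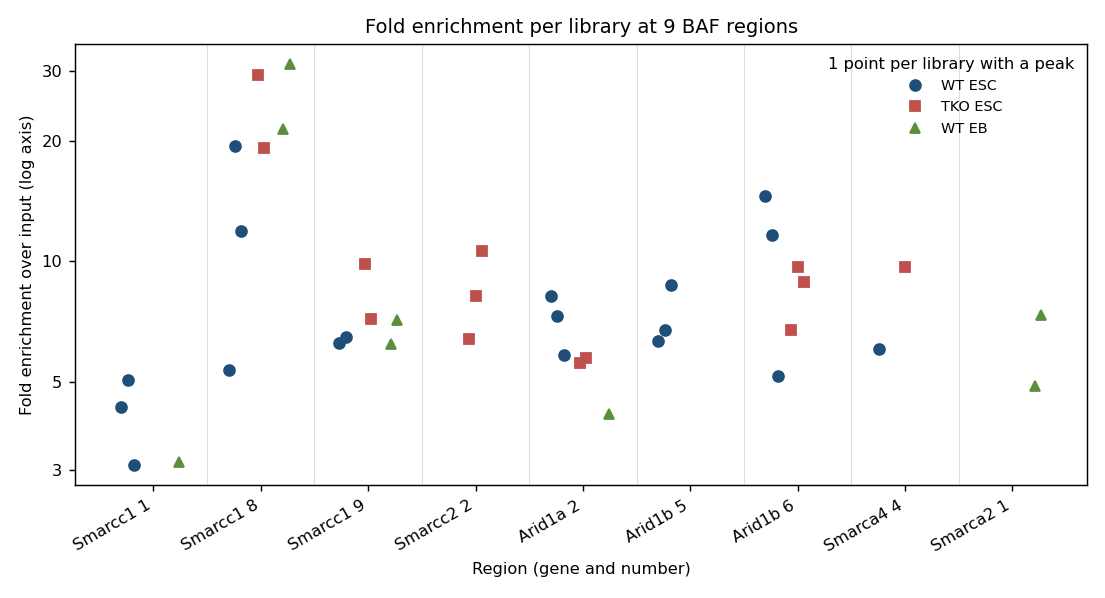
Fold enrichment over input (log axis) at 9 BAF regions, 1 point for each WT ESC, TKO ESC or WT EB library that listed a peak; a missing point is a library without a peak. At Smarcc1 8 the values run from 5.35 to 31.1, at Smarcc2 2 the points are all TKO ESC and at Arid1b 5 all are WT ESC.

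Arid1b and Arid1a encode the alternative ARID subunits, which bind DNA and define the canonical BAF complex. At 2 neighbouring regions of Arid1b, presence differed between the groups. Region 5 (chr17:5174156-5174374) had fold enrichments of 6.33, 6.73 and 8.74 in WT ESC and was in none of the other 10 libraries. Region 6 (chr17:5174617-5174849), its neighbour in intron 4, had 14.6, 11.6 and 5.17 in WT ESC and 6.71, 9.65 and 8.85 in TKO ESC. It was listed by all 4 knock-in libraries and by no WT EB library. The WT ESC values of region 6 were spread on either side of the TKO ESC values.

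Region 6 of Arid1b was the single BAF region with a peak in all 6 WT ESC and TKO ESC libraries, and so the only one whose fold enrichment could be compared over 3 libraries in each group. Mean log2 fold enrichment of the 3 WT ESC libraries was 3.26 ± 0.79 (SD), and that of the 3 TKO ESC libraries 3.05 ± 0.27 (SD), a difference of 0.20 that was smaller than the spread between replicates (two-sided exact permutation test, p = 0.7, adjusted 0.962 by Benjamini-Hochberg over 283 regions). The smallest p of this design is 0.1, and the median difference over the 283 regions was 0.05. Without WT ESC replicate 1 the sign turned, to -0.10. Groups without overlap were found at 9.54% of those 283 regions, and Arid1b region 6 was not among them. No BAF region had a peak in all WT ESC and all WT EB libraries. Of the 94 regions of the series that did, 19.1% had groups without overlap.

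Both Arid1b regions lay deep in an intron of 115803 bp, at 47235 and 47706 bp from the nearest splice site. This held for the ARID genes in general. All 11 intronic regions of Arid1a and Arid1b were between 1381 and 49440 bp from a splice site, whereas 9 of the 11 intronic regions of the other members lay within 100 bp of one, the exceptions being Smarcd1 1 and 2 at 112 and 788 bp. This split was noticed after the values were seen. The introns concerned were 29417 to 115803 bp long in Arid1a and Arid1b and 82 to 7567 bp long in the other members. The part of intron length was not tested. Over all intronic regions of coding genes, 19.7% lay within 100 bp of a splice site. Arid1b regions 2 and 3, in intron 1, were in both Tet2-KI ESC libraries, and region 2 also in WT ESC replicate 3 (6.28) and Tet2deltaRBD-KI ESC replicate 1. The copies of its repeat can be read in the printed sequence: shifted by 106 nt, the central 300 bases matched themselves at 86.1% of positions. A match of at least 80% at any shift from 10 to 150 nt was found at this region alone among the 42 BAF regions (2.38%), and at 1.60% of all regions in coding genes. The 3′ UTR of Arid1b held region 8, which was in WT EB replicate 3 alone, at 10.4.

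**Figure D3:**
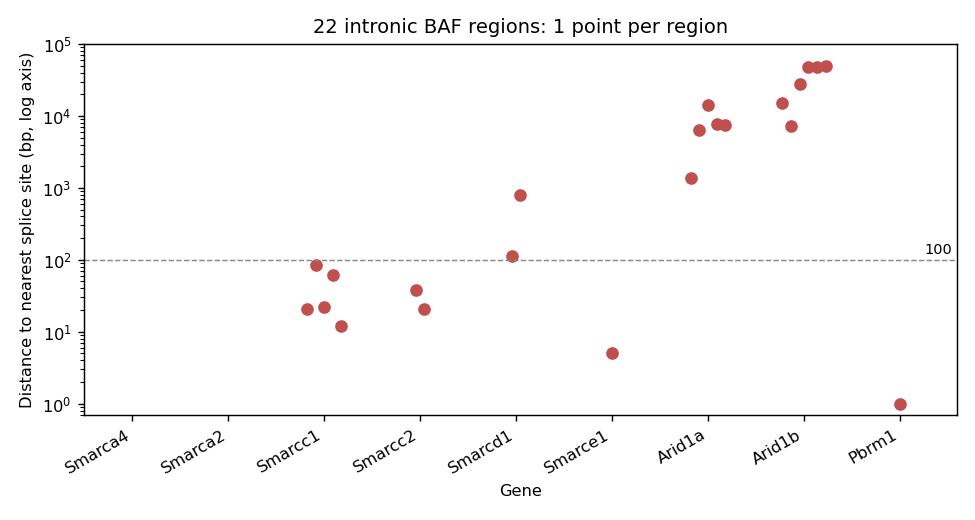
Distance from the centre of each of the 22 intronic BAF regions to the nearest splice site (bp, log axis), by gene, with a dashed line at 100 bp. All points of Arid1a and Arid1b lie above 1000 bp and 9 of the 11 points of the other genes lie below the line.

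In Arid1a the region found in every WT ESC library was at the start of the coding sequence. Region 2 (chr4:133309296-133309532) covered codons 1 to 77 in exon 1. Fold enrichment was 8.19, 7.28 and 5.81 in WT ESC, 5.55 and 5.73 in TKO ESC replicates 1 and 2, and 4.14 in WT EB replicate 1. The lowest value of WT ESC (5.81) was close to the highest of TKO ESC (5.73). TKO ESC replicate 3 and WT EB replicates 2 and 3 had no value, and no test was made. Region 2 was also in Tet2-KI ESC replicate 1 and in both Tet2deltaRBD-KI ESC libraries. Further along exon 1, region 3 (codons 229 to 302) was in both Tet2deltaRBD-KI ESC libraries and in no other. Region 8 (chr4:133237597-133237808), in the last exon (codons 1768 to 1838), was in both Tet2-KI ESC libraries and in no other. Its printed sequence holds 23 purines in a row. The 5 intronic regions of Arid1a were each found in 1 or 2 libraries.

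Peaks of the ATPase genes were listed in different libraries. Smarca4, whose product BRG1 is the motor of esBAF, had peaks in 7 of the 10 ESC libraries and in no WT EB library. Of the 5 members with a peak in at least 5 ESC libraries, Smarca4 and Smarcc2 were the 2 without any in WT EB. This was near the share of all such coding genes, 44.3%. Smarca2, whose product BRM is the alternative motor, had no peak in the 10 ESC libraries and peaks in WT EB replicates 2 and 3. Among all coding genes with a peak in at least 2 WT EB libraries, 1.17% (9 of 766) had none in the ESC libraries. Smarcc1 was the other member in at least 2 WT EB libraries. These patterns were chosen after the values were seen, and they rest on few libraries. Smarca2 region 1 (chr19:26826289-26826553, exon 28, codons 1339 to 1411) had fold enrichments of 4.88 and 7.32 in WT EB replicates 2 and 3, and region 2 (exon 32, codons 1525 to 1567) had 4.12 in WT EB replicate 3.

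Smarca4 region 4 had its centre in exon 33 of 34 and reached back across the intron into the exon before it, so that 214 of its 350 bases were exonic (codons 1536 to 1607) and 136 intronic. It was in all 4 knock-in libraries, in WT ESC replicate 1 at 6.04 and in TKO ESC replicate 3 at 9.64. Smarca2 region 2 lay over 127 bases of the exon with the same place in its gene, next to the last, and the same length of 143 bp. The other regions of Smarca4 were in 1 or 2 libraries each.

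The remaining core subunits had few peaks. Smarcd1, which encodes the BAF60A subunit that contacts transcription factors, had region 2 in WT ESC replicate 1 at 3.89 and in Tet2-KI ESC replicate 1, and region 1 in Tet2deltaRBD-KI ESC replicate 1. Smarce1, which encodes the HMG-box subunit BAF57, had region 1 in WT ESC replicate 1 at 3.56 and region 2 in WT ESC replicate 3 at 5.54, each also in Tet2-KI ESC replicate 1. Pbrm1, which encodes the polybromo subunit of PBAF, had its region in WT EB replicate 3 at 4.52. None of these genes had a region in every library of a group.

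**Figure D4:**
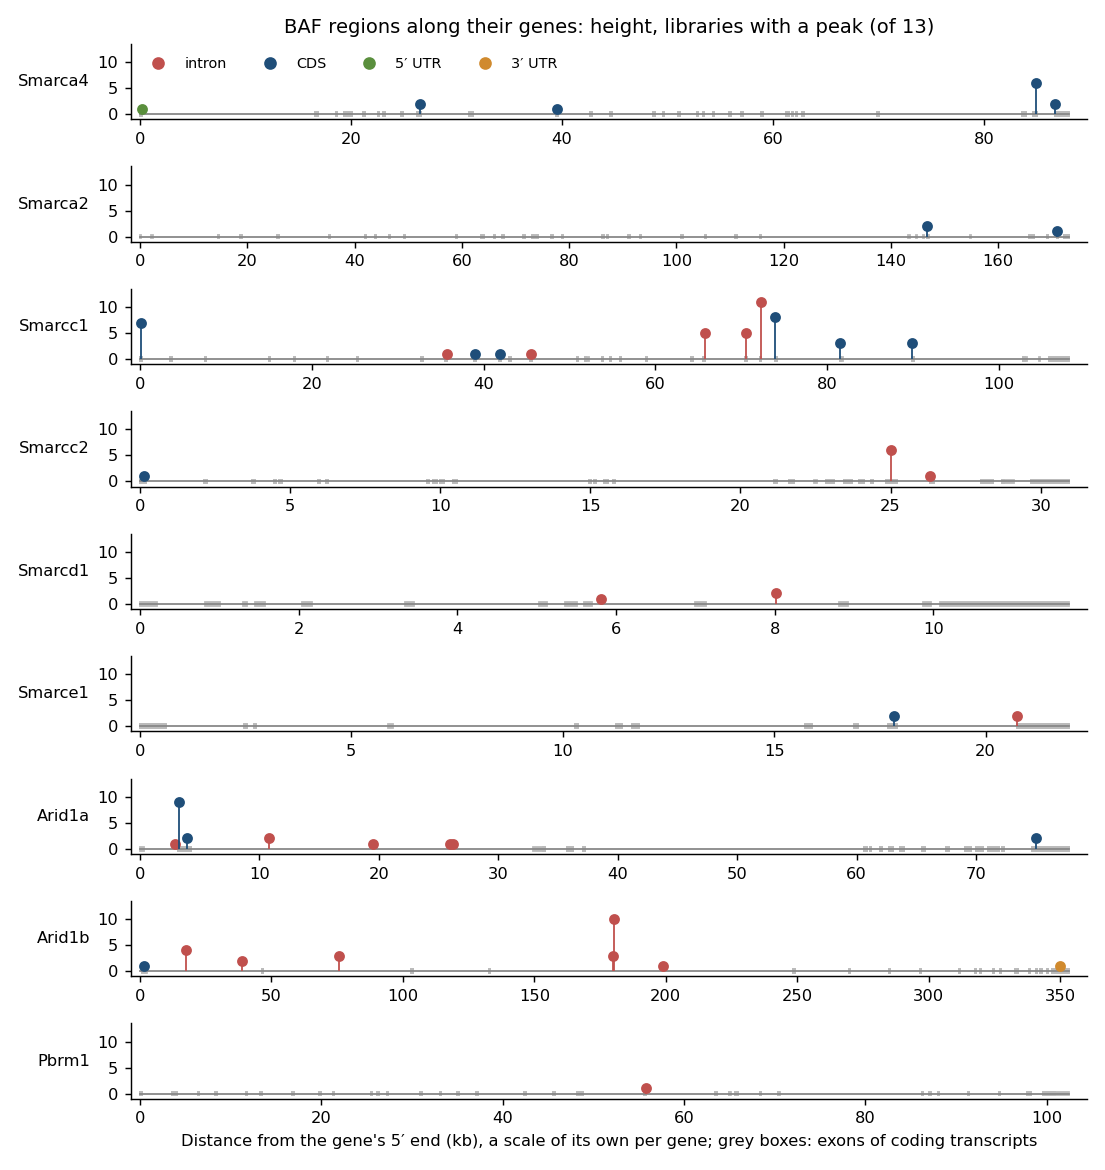
Position of each BAF region along its gene, as the distance from the 5′ end in kb with a scale of its own for each gene, with grey boxes for exons. The height gives the number of libraries with a peak, of 13, and the colour the transcript part. Regions of Smarcc1 gather between 65.8 and 89.9 kb, and the tallest points of Arid1b stand in a long intron.

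The comparison of WT ESC with TKO ESC asked which peaks need the Tet enzymes. Of the 5 BAF regions in every WT ESC library, 2 (Smarcc1 1 and Arid1b 5) had no TKO ESC peak, against 32.2% of the 1532 such regions in the series. The TKO ESC lists were shorter, and the part of list length in these counts could not be read from lists shortened to the shortest, since no BAF region was then left in every WT ESC library. The comparison of WT ESC with WT EB asked what changes upon differentiation. Of the same 5 regions, 2 (Arid1b 5 and 6) had no WT EB peak, against 54.9% over the series. The count was 4 without WT EB replicate 1, a setting with no share over the series beside it. Here too, lists shortened to the shortest left no BAF region in every WT ESC library. No BAF region was in every WT EB library. Over the series, 2.61% of the regions in all WT EB libraries had no WT ESC peak.

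For the knock-ins, the comparison asked what the RNA-binding domain of Tet2 contributes. Of the 8 BAF regions in both Tet2-KI ESC libraries, 3 (Smarcc1 9, Arid1a 8 and Arid1b 3) had no Tet2deltaRBD-KI ESC peak, against 35.6% over the series. Of the 6 in both Tet2deltaRBD-KI ESC libraries, Arid1a 3 had no Tet2-KI ESC peak, against 15.8%. Smarca4 4, Smarcc1 8 and Arid1b 6 were in all 4. Both shares of the BAF genes were near the background, but the counts rest on single libraries. Leaving out Tet2-KI ESC replicate 2 raised the first count to 12 of the 19 BAF regions of its replicate 1. Without Tet2-KI ESC replicate 1 it was 5 of the 11 of its replicate 2. Without Tet2deltaRBD-KI ESC replicate 1 it was 5 of the same 8. The second count, of 1, became 4 of 9 when Tet2deltaRBD-KI ESC replicate 1 was left out, and 3 of 11 when its replicate 2 was. It became 3 of the same 6 when Tet2-KI ESC replicate 1 was left out. No share over the series stands beside these settings, and 35.6% and 15.8% do not apply to them.

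Relative to list length the order of the groups changed. WT ESC libraries had 10.0 ± 2.0 BAF peaks, TKO ESC libraries 9.0 ± 4.4 and WT EB libraries 6.0 ± 4.0 (SD, n = 3), while the Tet2-KI ESC libraries had 15.0 ± 5.7 and the Tet2deltaRBD-KI ESC libraries 10.0 ± 1.4 (SD, n = 2). Per 1000 listed peaks, WT ESC had 1.79 ± 0.82, TKO ESC 3.46 ± 0.82 and WT EB 3.37 ± 0.60 (SD, n = 3), and the knock-ins had 1.87 ± 0.05 with intact Tet2 and 2.54 ± 0.24 without its RNA-binding domain (SD, n = 2). WT ESC replicates 2 and 3 had the lowest shares, 1.41 and 1.23, and WT ESC replicate 1, at 2.73, lay within the range of TKO ESC (2.54 to 4.15). Between libraries with the same replicate number, TKO ESC had the higher share in all 3 pairs (4.15 against 2.73, 2.54 against 1.41 and 3.68 against 1.23). Without Smarcc1 it was also the higher in all 3, at 3.11 against 1.59, 1.16 against 0.984 and 1.53 against 0.769. Per 1000 peaks in coding genes, with Smarcc1, TKO ESC had 5.11 against 4.02, 2.83 against 1.88 and 4.43 against 1.72 in WT ESC. No test was made of these shares. Without Smarcc1 the difference of the means (WT ESC minus TKO ESC) went from -1.67 to -0.82 per 1000, and WT ESC minus WT EB from -1.59 to -0.11. With peaks at or above the median of their list, they were -2.22 (TKO ESC) and -0.37 (WT EB). The shares of TKO ESC replicate 1 and WT EB replicate 1 rest on 4 and 2 peaks.

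**Figure D5:**
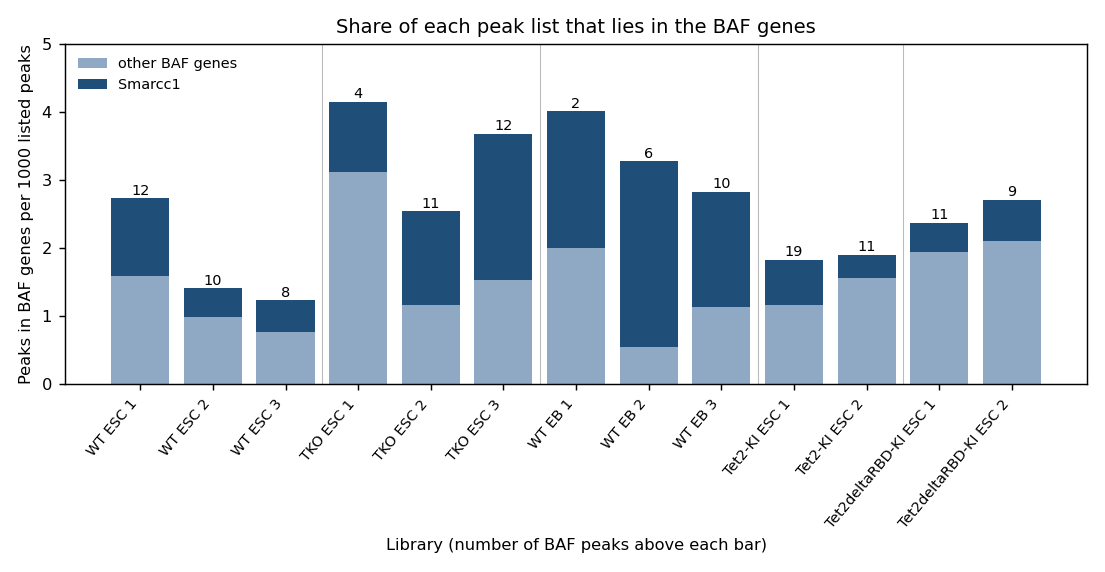
Peaks in BAF genes per 1000 listed peaks in each of the 13 libraries, split into Smarcc1 (dark) and the other genes (light), with the number of BAF peaks above each bar. The bars run from 1.23 in WT ESC replicate 3 to 4.15 in TKO ESC replicate 1, which rests on 4 peaks.

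By transcript part, read at the centre, 22 of the 42 regions were intronic, 18 lay in coding sequence, 1 in a 5′ UTR (Smarca4 1) and 1 in a 3′ UTR (Arid1b 8). Smarca4 2, counted as coding, had 122 of its 358 bases in exons and neither of its 2 summits. The intronic share was 52.4% (exact binomial 95% interval 36.4% to 68.0%, for counting error over regions), against 68.9% of all regions in coding genes and 93.8% of the bases of the 10 genes. Of the 42 regions, 22 (52.4%) had their centre within 100 bp of a splice site, against 29.3%. No region lay over another annotated gene.

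The base composition of the BAF regions is described here beside that of all regions in coding genes, with no test. The median pyrimidine share of the central 200 bases was 42.5% in both sets, and 37 of the 42 regions (88.1%) were below 50%, against 80.6%. The range was 29.0% to 58.0%, and no BAF region reached 65%, a level found at 4.04% of all regions. A run of at least 8 C or T bases was found at 21 BAF regions (50.0%) and at 36.2% of all, and a run of at least 12 purines at 17 (40.5%) and at 34.7%. Both runs were searched on the strand of the gene alone. Arid1b 3, which begins with a GA repeat, was the single region with a tandem repeat of a 1- to 4-base unit, against 8.43% of all regions.

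The other subunits of the BAF and PBAF complexes had fewer regions. Of 20 listed genes, 19 were found in the annotation by symbol, and 10 of them had 21 regions in all, or 2.51 per 100 kb. None had a region in every WT ESC library. Bcl7a had an intronic region (chr5:123811762-123812002) in both Tet2-KI ESC libraries, WT ESC replicates 2 and 3, TKO ESC replicate 2 and Tet2deltaRBD-KI ESC replicate 1, at 4.86 to 6.94 where a value was listed. Bcl7c and Smarcd2 each had 1 region in both Tet2deltaRBD-KI ESC libraries and Tet2-KI ESC replicate 1. For comparison, all 13 listed genes of NuRD, another nucleosome remodelling complex, had a region, with 33 regions or 6.61 per 100 kb, and 3 of them had one in every WT ESC library.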

How the data were processed

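Peak lists of 13 immunoprecipitated hMeRIP-Seq libraries were used. The authors mapped trimmed reads to the mouse genome (mm9) with STAR, called peaks in each library against its input with MACS2 by q-value, and resized each peak to 100 bp on both sides of its summit. The deposited fold enrichment is a ratio of precipitate over input and is present in 9 lists. No read count is in the lists, so depth gives no interval here. Bowtie2, FastQC and Trimmomatic are also named in the submitters' processing notes, and versions are not given in the sources used here.

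Intervals of all libraries were merged where they overlapped by at least 1 bp, and assigned by their summit to coding genes of GENCODE M1 (mm9). A region is intronic if the median of its summits lies in no exon of a coding transcript. Where a library had several peaks in a region the highest fold enrichment was used. Presence was counted with no test, beside the same count over all regions or genes. Fold enrichment was compared on the log2 scale by two-sided exact permutation tests over libraries, with Benjamini-Hochberg adjustment over all regions with a value in every library. Samples were grouped by the labels, and the replicate numbers of WT ESC and TKO ESC were taken to pair the libraries, since the deviations of same-numbered libraries from their group means were correlated (r = 0.331, 0.126 and 0.119 over 283 regions). WT ESC replicate 3 was more correlated with TKO ESC replicate 2 (0.162), so that the pairing of replicates 2 and 3 is uncertain. By contrast, the values for WT ESC and WT EB were not all positive (0.285, 0.152 and -0.018 over 94 regions).

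All 10 genes are named. Regions described in full were in every library of at least 1 group or held the highest fold enrichment of a gene. Members and gene lists were chosen with earlier results of these data known. Steps were tested on simulated data. Python 3.11.15, pandas 2.3.3, numpy 2.4.6, scipy 1.17.1, pysam 0.24.0, samtools 1.23.1 and matplotlib 3.10.9 were used. The input lists were not analysed here. Protein sequences were not used here.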

Additional observations from a re-analysis of the deposited data

How the results depend on the processing

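Of 122 recomputed values, 97 stayed within the limits set for each kind of value, 23 moved beyond them and 2 turned in sign. The limits were a factor of 1.5 for counts, the SD between replicates for peaks per 1000 and the exact binomial interval for the intronic share, while the log2 differences at Arid1b region 6 and Smarcc1 region 8 had only to keep their sign and their side of the threshold. The counts of regions by group did not change with a merging overlap of 100 bp, with separate merging of the 9 and 4 libraries, or with any overlap of interval and gene. The overlap of 100 bp gave 43 in place of 42 regions in all, and an intronic share of 55.8% in place of 52.4%. With peaks at or above the median of their list, 2 regions (Arid1a 2 and Arid1b 5) were in all WT ESC libraries in place of 5, both then without TKO ESC and WT EB peaks, and the peaks per 1000, WT ESC minus WT EB, came to -0.37. With lists shortened to the shortest by fold enrichment, 0 regions were in all WT ESC and no TKO ESC libraries, in all WT ESC and no WT EB libraries, and in all TKO ESC and no WT ESC libraries, but these counts say nothing of the second group. At 964 intervals (WT ESC and TKO ESC) and 498 (WT ESC and WT EB), 0 BAF regions were left in all libraries of the first group. The WT ESC lists alone, shortened to 4395, kept 4 regions in all 3. With presence in at least 2 of 3 replicates, 3 regions were in TKO ESC and not in WT ESC, and 2 in WT EB and not in WT ESC. With the libraries whose descriptions begin with 1703, these were 3 and 2, and 4 regions were in WT ESC and not in WT EB. With Smarcc1 left out, an alternative chosen after seeing the data, 3 regions were in all WT ESC libraries and 1 of them in no TKO ESC library, and the peaks per 1000 differed by -0.82 (TKO ESC) and -0.11 (WT EB). The causes were not tested.

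Leaving out 1 replicate at a time gave 5 to 6 regions in all WT ESC libraries, 2 without TKO ESC peaks at each setting (2 to 2), 2 to 4 without WT EB peaks (4 without WT EB replicate 1), 1 to 3 in all TKO ESC and no WT ESC libraries (3 without TKO ESC replicate 1), and 0 to 2 in all WT EB and no WT ESC libraries (2 without WT EB replicate 1). Between the knock-ins, where 1 library is then left in a group, it gave 3 to 12 regions of Tet2-KI ESC without a Tet2deltaRBD-KI ESC peak (5 without its replicate 1, 12 without its replicate 2, 5 without Tet2deltaRBD-KI ESC replicate 1) and 1 to 4 of Tet2deltaRBD-KI ESC without a Tet2-KI ESC peak (4 and 3 without its replicates 1 and 2, 3 without Tet2-KI ESC replicate 1). Shares over the series were given for the main setting only. The differences in peaks per 1000 ranged from -2.14 to -1.32 (TKO ESC), -2.06 to -1.27 (WT EB) and -0.85 to -0.50 (knock-ins). At Arid1b region 6, the log2 difference between WT ESC and TKO ESC ranged from -0.10 to 0.65, was -0.25 with the libraries of prefix 1703 and 0.20 with the replicate block (exact sign-flip test, adjusted p = 0.927, smallest raw p 0.25), against an adjusted p of 0.962 without it. At Smarcc1 region 8 the pairing, added after seeing the data, gave an adjusted p of 0.844 in place of 0.908. No p of these designs could pass the threshold of 0.05, with or without the block, and no BAF region allowed the block for WT EB.

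Peak presence depends on list length and on unknown depth and expression. Strand, precise base and stoichiometry of 5hmC are not measured by these intervals.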
